A study of Mus musculus with 6 samples.

Results

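Ribosome footprints of 10 genes that place, copy, protect or remove DNA methylation in the oocyte were followed through meiotic maturation of mouse oocytes. The genes were Dnmt1, Uhrf1, Dppa3, Dnmt3a, Dnmt3l, Kdm1b, Tet3, Zfp57, Trim28 and Hells, taken by symbol from a table of 22416 genes, and all 10 were found there. Ribo-lite, a form of ribosome profiling for few cells, sequences the short stretches of mRNA that a ribosome shields from RNase, so each value reads ribosomes on the coding sequence of a gene. There were 3 groups of 2 libraries, each made from 500 oocytes. WT_FGO held fully grown oocytes at the germinal vesicle (GV) stage, WT_MII held control oocytes matured in culture to metaphase II (MII), and Treat_MII held treated MII oocytes. All groups were labelled wild type, and the methods describe 4-week-old female mice given 5 IU PMSG, a gonadotropin, 44 h before collection. The labels say only that Treat_MII was treated. In the methods the treatment is BYBX, a ligand that stabilizes RNA G-quadruplexes (rG4s), which are folded G-rich stretches. Control oocytes had its solvent DMSO. By the paper, only a small share of treated oocytes released a polar body and reached MII, with abnormal spindles. The study asked whether rG4s restrain the translation of maternal mRNAs during maturation.

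The mammalian oocyte sets the methylation of its genome while it grows and hands the embryo both that pattern and the proteins that keep or erase it. DNMT3A with its cofactor DNMT3L writes new methyl marks, DNMT1 with UHRF1 copies them after replication, and DPPA3 (also called STELLA or PGC7) limits UHRF1 in the oocyte and shields the maternal genome in the zygote. After fertilization TET3 oxidizes methylcytosine, above all in the paternal genome, while ZFP57 and its corepressor TRIM28 hold methylation at imprinted regions.

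Values were FPKM, fragments scaled to coding length and to the reads of the library, so they show a gene relative to all other footprints of that library. They corresponded to whole reads, with library constants of 94309 to 331304 reads, lowest in WT_FGO and highest in Treat_MII. For the 10 genes, the reads behind each value are given where few. In every library 9 or 10 of the 10 oocyte markers were above 0, with summed levels of 18801 to 45405 FPKM. The 13 granulosa and cumulus markers summed to 862 and 1708 FPKM in WT_FGO, against 2228 and 424 in WT_MII and 326 and 357 in Treat_MII, and 3 to 8 of the 13 were listed at 0 in each library. In WT_MII replicate 1, 333 of the 385 granulosa reads came from Hsd17b1 alone. The markers of blood cells summed to at most 81.1 FPKM.

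Together the 10 genes held 0.582 to 0.691% of all FPKM of a library, with sums of 4482 to 5552 FPKM. In WT_FGO the order of mean levels was Dppa3 (2533 FPKM), Dnmt1 (1003 FPKM), Uhrf1 (738 FPKM), Kdm1b (314 FPKM) and Zfp57 (171 FPKM), and none of these neighbours overlapped. Dnmt3a, Trim28 and Dnmt3l followed with means of 85.2, 74.5 and 69.99 FPKM and overlapped one another in that order, and Hells and Tet3, at 17.0 and 10.3 FPKM, overlapped as well. In WT_MII Dppa3 and Dnmt1 still led, and Zfp57 had moved to the third place with 709 FPKM. Tet3 and Trim28 came next and overlapped, then Uhrf1, Kdm1b and Hells, whose neighbours also overlapped, and Dnmt3a and Dnmt3l were last with 21.9 and 6.86 FPKM. In Treat_MII Dnmt1 and Dppa3 overlapped at the top, followed in order by Zfp57, Trim28, Uhrf1, Kdm1b, Tet3 and Hells with no overlap between neighbours, and by Dnmt3a and Dnmt3l, which overlapped.

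**Figure D1:**
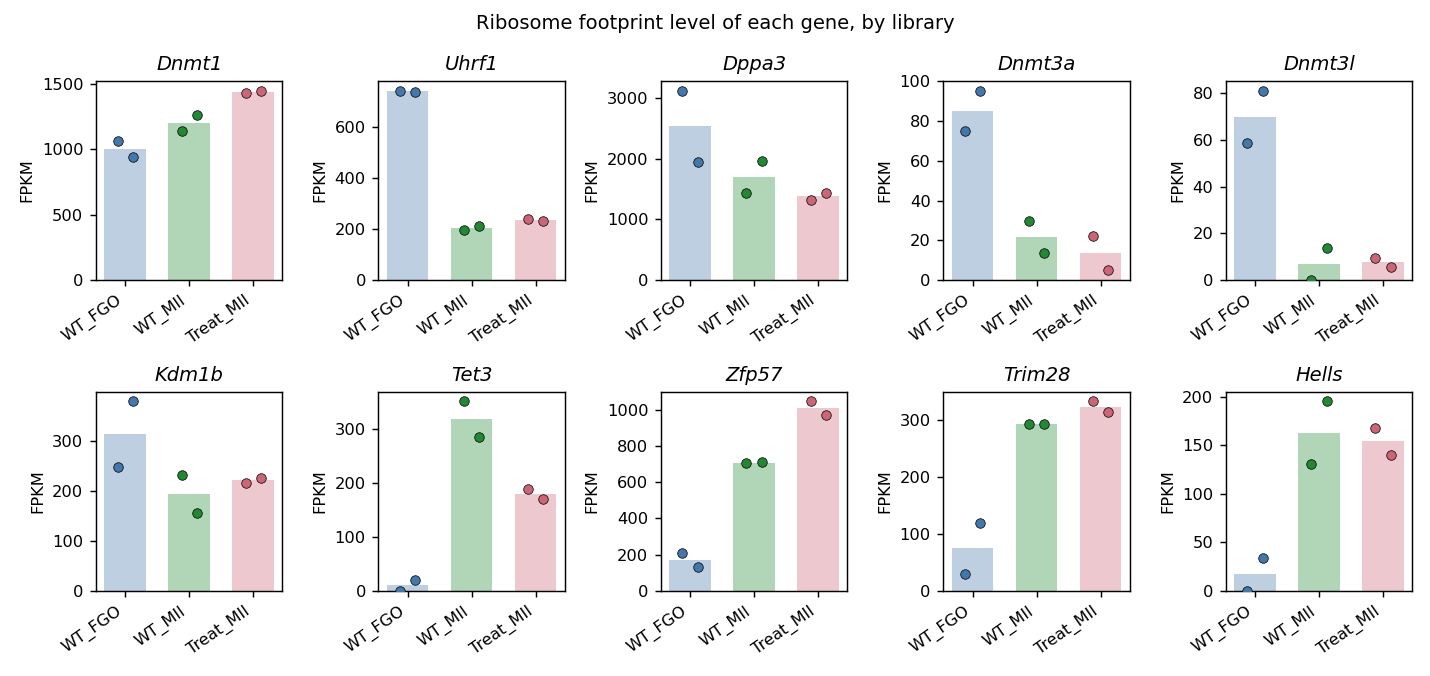
Footprint level in FPKM (vertical axes, each from 0 on a linear scale) of the 10 genes in WT_FGO, WT_MII and Treat_MII. Bars are means of 2 libraries and points are single libraries. Uhrf1 stood at 735 and 741 FPKM in WT_FGO and at 196 to 238 FPKM in the 4 MII libraries, and Zfp57 at 133 and 209.9 FPKM in WT_FGO and at 706 FPKM or more in the MII libraries.

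In the sum of the 10 genes, Dppa3 took 56.3% and 43.3% in WT_FGO, 31.7% and 38.4% in WT_MII, and 26.6% and 29.1% in Treat_MII. Uhrf1 took 13.4% and 16.4% of the sum in WT_FGO and 4.16 to 4.78% in the 4 MII libraries. Zfp57 went the other way, with 3.78% and 2.96% in WT_FGO, 15.7% and 13.99% in WT_MII, and 21.1% and 19.7% in Treat_MII. These shares are descriptions and were not tested.

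**Figure D2:**
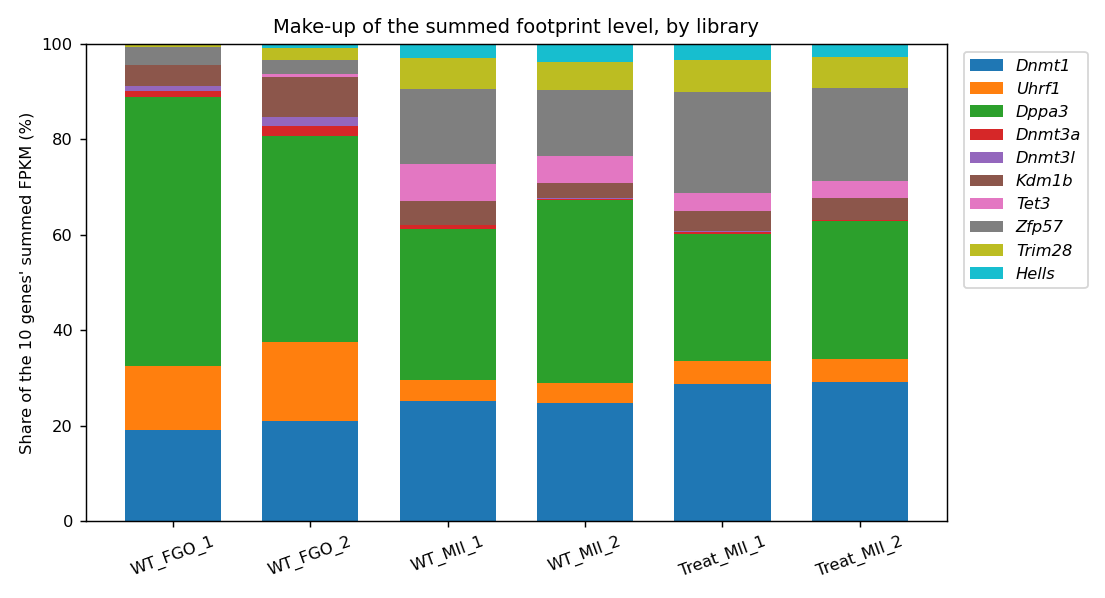
Share of each gene in the summed FPKM of the 10 genes (vertical axis, percent) for each of the 6 libraries. Dppa3 and Uhrf1 took a larger share in both WT_FGO libraries than in any MII library, and Zfp57, Tet3, Trim28 and Hells took a smaller one.

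Sequences were read from the mouse genome (GRCm38, the assembly also called mm10) with the GENCODE release 21 annotation, in the longest coding transcript of each gene. They are shown because the treatment ligand binds rG4s. On the mRNA strand, 4 runs of 3 or more G joined by loops of 1 to 7 bases were searched as a G-quadruplex motif. It was found in 3 of the 10 genes. Dnmt1 held it once in the coding sequence, Dnmt3a in the 3′-UTR, where a second and longer match is not printed, and Trim28 once in the coding sequence. Written 5′ to 3′ on the mRNA strand with T for U, and with the G runs in capitals, the matches were:
Dnmt1, chr9:20912576-20912599, minus strand: GGGaacaaaGGGaaaGGGaaGGGG
Dnmt3a, chr12:3913653-3913677, plus strand: GGGGttGGGacccaaGGGcagaGGG
Trim28, chr7:13024791-13024813, plus strand: GGGtcGGGcgaGGGctcggcGGG

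The motif was present in 7.23% of the 5′-UTRs, 4.53% of the coding sequences and 10.7% of the 3′-UTRs of the tested genes. Among regions whose length differed by at most 25% it was present in 10.5% for the Dnmt1 coding sequence, 31.5% for the Dnmt3a 3′-UTR and 5.84% for the Trim28 coding sequence. None of the 10 genes held it in the 5′-UTR, and the Tet3 transcript used has no annotated 3′-UTR to search. Whether the oocyte uses these longest coding transcripts, and so the 5′-UTRs searched, was not tested. With runs of at least 2 G the motif was in 9 of the 10 genes, all but Dppa3, and in 57.9%, 87.9% and 62.5% of the 3 kinds of region overall. A match is a stretch of letters and not a measured rG4.

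The cytoplasmic polyadenylation element, a U-rich element known to control poly(A) tail length and translation in oocytes, was searched as TTTTAT or TTTTAAT in the last 100 bases of the 3′-UTR, on the mRNA strand. This search was chosen after the footprint values had been seen. It was present in 2 of the 9 genes with an annotated 3′-UTR, Dnmt1 and Dnmt3a, and in 18.7% of 13578 tested genes. The poly(A) signal AATAAA or ATTAAA stood in the same window in 79.5% of these tested genes and in 6 of the 9 genes. Written the same way, with the element in capitals, the matches were:
Dnmt1, chr9:20907239-20907268, minus strand: gacttgatgtagTTTTATatgttgtaatat
Dnmt3a, chr12:3914377-3914406, plus strand: tgtttatatataTTTTATtttcgctataaa
Zfp57, Trim28, Hells, Uhrf1, Dppa3, Dnmt3l and Kdm1b held neither TTTTAT nor TTTTAAT in that window. Dnmt3l, Kdm1b and Hells held no poly(A) signal there either, and whether their annotated ends are those used in the oocyte was not tested.

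Of the maintenance pair, Uhrf1 was lower after maturation and Dnmt1 did not pass the test. Uhrf1 (chr17:56303321-56323486, plus strand), the reader of hemimethylated CpG sites that recruits DNMT1, had levels of 741 and 735 FPKM in WT_FGO, against 196 and 212 in WT_MII and 238 and 230 in Treat_MII. Both WT_FGO libraries lay far above the 4 MII libraries. Uhrf1 fell between WT_FGO and WT_MII by 1.85 ± 0.25 (SE) on the log2(FPKM + 1) scale, to 0.277 of its mean level (limma, adjusted p = 0.0143). Of all tested genes, 3.09% were called lower in this comparison. Leaving out any 1 of the 4 libraries gave changes of -1.91 to -1.79, and Uhrf1 was called each time. Such a fit leaves 1 library in a group, which is assumed to vary like the other groups. Of the stretches of 28 bases in its coding sequence, 48.2% also occur elsewhere in the genome, on chromosomes 16 and X, and how the reads of such stretches were placed is not given in the sources used here.

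Dnmt1 (chr9:20907209-20959888, minus strand), the maintenance methyltransferase, of which oocytes make a shorter form, was among the highest of the 10 genes in every library. Its levels were 1065 and 942 FPKM in WT_FGO, against 1136 and 1261 in WT_MII and 1429 and 1448 in Treat_MII, from 488 to 2301 reads. The WT_MII libraries exceeded the WT_FGO libraries, and both Treat_MII libraries exceeded all others. The maturation difference was 0.26 ± 0.19 (SE) in log2(FPKM + 1), with a 95% interval of -0.21 to 0.73 (limma, adjusted p = 0.490), and the treatment difference was also 0.26 ± 0.19, with an interval of -0.20 to 0.73 (limma, adjusted p = 0.931). Neither passed the test. Values per gene do not separate the forms of Dnmt1. The FPKM ratio of Dnmt1 to Uhrf1 was 1.44 and 1.28 in WT_FGO and 5.79 to 6.28 in the 4 MII libraries.

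Dppa3 (chr6:122626410-122630272, plus strand) was among the strongest footprint signals of the fully grown oocyte, above 99.9% of all genes in WT_FGO by its mean. Its levels were 3125 and 1942 FPKM in WT_FGO, against 1429 and 1957 in WT_MII and 1322 and 1440 in Treat_MII. The WT_FGO and WT_MII libraries overlapped, since the higher WT_MII library exceeded the lower WT_FGO library. The maturation difference was -0.56 ± 0.29 (SE) in log2(FPKM + 1) (limma, adjusted p = 0.340) and the treatment difference -0.28 ± 0.29 (limma, adjusted p = 0.974). Neither passed the test. Dppa3 has a short coding sequence, and 65.3% of its stretches of 28 bases also occur on chromosomes 13, 14 and X, so its values are uncertain where reads of such stretches were shared.

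The de novo pair, Dnmt3a and Dnmt3l, had the lowest levels of the 10 genes at MII. Dnmt3a (chr12:3806007-3914443, plus strand), the methyltransferase that writes the oocyte pattern, stood at 74.9 and 95.4 FPKM in WT_FGO (20 and 29 reads), against 29.96 and 13.8 in WT_MII (14 and 9 reads) and 22.4 and 5.12 in Treat_MII (21 and 4 reads). Both WT_FGO libraries were above all MII libraries, and WT_MII and Treat_MII overlapped. The maturation difference was -2.001 ± 0.82 (SE) in log2(FPKM + 1), and it did not pass the test (limma, adjusted p = 0.218). Dnmt3l (chr10:78041947-78063622, plus strand), its cofactor without catalytic activity, was at 58.8 and 81.2 FPKM in WT_FGO from 7 and 11 reads. In WT_MII it had 0 and 13.7 FPKM from 0 and 4 reads. The floor set for a count of 0 was 3 reads, or 14.4 FPKM in that library, and the 95% interval of counting error reached 17.7 FPKM. In Treat_MII it had 9.56 and 5.75 FPKM from 4 and 2 reads. The WT_FGO libraries of Dnmt3l thus lay above the rest, at a depth of few reads. The maturation difference of -4.19 ± 1.30 (SE) in log2(FPKM + 1) did not pass (limma, adjusted p = 0.123), and it ranged from -6.13 without WT_MII replicate 2, where it passed (limma, adjusted p = 0.0359), to -2.25 without WT_MII replicate 1.

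Kdm1b (chr13:47043499-47085279, plus strand), a lysine demethylase that clears H3K4 methylation so that imprints can be written, had 248 and 380 FPKM in WT_FGO, against 232 and 156 in WT_MII and 217 and 225 in Treat_MII. The lower WT_FGO library was just above the higher WT_MII library. The maturation difference was -0.69 ± 0.37 (SE) in log2(FPKM + 1) and did not pass the test (limma, adjusted p = 0.355). WT_MII and Treat_MII overlapped.

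Tet3 (chr6:83362373-83459084, minus strand), the dioxygenase that acts in the zygote, had the largest maturation difference of the 10 genes. Its levels were 0 and 20.6 FPKM in WT_FGO (0 and 12 reads), against 352 and 285 in WT_MII (316 and 358 reads) and 188 and 171 in Treat_MII (339 and 256 reads). The 3 groups did not overlap, with WT_MII highest, Treat_MII between and WT_FGO lowest. The mean of WT_MII was 15.5 times the level of WT_FGO replicate 2. Against replicate 1, which had no read, it was 54.5-fold higher with that library set to the floor of 3 reads, or 5.85 FPKM. The 95% interval of counting error for that library reached 7.19 FPKM, so this fold is no lower bound. The maturation difference was 6.10 ± 1.33 (SE) in log2(FPKM + 1), with a 95% interval of 2.85 to 9.35, and it missed the threshold (limma, adjusted p = 0.0515). With 1 library left out the difference was 3.88 without WT_FGO replicate 1 and 8.31 without WT_FGO replicate 2 (limma, adjusted p = 0.00806 and 0.00365), where the lone WT_FGO library has no spread of its own. It was 5.94 and 6.25 without WT_MII replicate 1 or 2 and did not pass (limma, adjusted p = 0.285 and 0.258). limma-voom, which weights by the reads recovered from the FPKM, called Tet3 higher (adjusted p = 4.63e-11).

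Of the imprint protectors, Zfp57 rose in maturation and Trim28 did not pass the test. Zfp57 (chr17:37001163-37010635, plus strand), the zinc finger protein that binds the methylated allele of imprinting control regions, had 209.9 and 133 FPKM in WT_FGO (25 and 18 reads), against 706 and 713 in WT_MII and 1049 and 974 in Treat_MII. No group overlapped another, and WT_FGO was lowest. Zfp57 rose in maturation by 2.08 ± 0.30 (SE) on the log2(FPKM + 1) scale, to 4.14 times its mean level (limma, adjusted p = 0.0157), in a comparison in which 3.67% of all tested genes were called higher. Without WT_MII replicate 1 or 2 it missed the threshold (limma, adjusted p = 0.104 and 0.0964), while the change stayed between 1.75 and 2.41 whichever library was left out. Trim28 (chr7:12999114-13031035, plus strand), the corepressor that ZFP57 recruits, stood at 29.7 and 119 FPKM in WT_FGO (7 and 32 reads), against 293 and 293 in WT_MII and 333 and 313 in Treat_MII. All MII libraries lay above both WT_FGO libraries. Its maturation difference of 2.27 ± 0.64 (SE) in log2(FPKM + 1) did not pass the test (limma, adjusted p = 0.0972). The FPKM ratio of Zfp57 to Trim28 was 7.07 and 1.11 in WT_FGO and lay between 2.41 and 3.15 in the MII libraries.

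Hells (chr19:38930915-38971051, plus strand), a chromatin remodeller needed for methylation of repeats, had 0 and 34.1 FPKM in WT_FGO (0 and 9 reads), against 130.4 and 195 in WT_MII (53 and 111 reads) and 168 and 139.95 in Treat_MII (137 and 95 reads). WT_FGO lay below all MII libraries, while WT_MII and Treat_MII overlapped. The WT_MII mean was 4.78 times WT_FGO replicate 2, and 12.6 times replicate 1 set to its floor of 3 reads, or 12.9 FPKM. The 95% interval of counting error for replicate 1 reached 15.9 FPKM, so this fold is no lower bound either. The maturation difference of 4.76 ± 1.54 (SE) in log2(FPKM + 1) did not pass the test (limma, adjusted p = 0.134).

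Tet3 (12 and 0), Trim28 (32 and 7) and Hells (9 and 0) had more reads in WT_FGO replicate 2 than in replicate 1. So had Kdm1b (101 and 58), Dnmt3a (29 and 20), Dnmt3l (11 and 7), Uhrf1 (185 and 164) and Dnmt1 (491 and 488). Dppa3 (106 and 150) and Zfp57 (18 and 25) had fewer. Replicate 2 was the deeper library, with a constant of 107251 against 94309 reads. Several markers of granulosa cells, the follicle cells that surround the oocyte, also had more reads in replicate 2. Inha had 88 reads in replicate 2 and 3 in replicate 1, Amh had 35 and 9, Inhba 19 and 0, and Cyp11a1 12 and 0, while Fshr, the receptor that defines granulosa cells, had 3 reads and 0. Hsd17b1, the marker with the most reads, lay the other way with 54 reads in replicate 2 and 71 in replicate 1, as did Cyp19a1 with 4 and 5 and Kitl with 0 and 1. Over the whole list, 8 and 5 of the 13 markers were above 0, summing to 1708 and 862 FPKM. Whether other cells added to the counts of Tet3, Trim28 and Hells in that library was not tested. Without WT_FGO replicate 2 the 3 maturation differences were larger, at 8.31, 3.26 and 7.33 in log2(FPKM + 1).

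**Figure D3:**
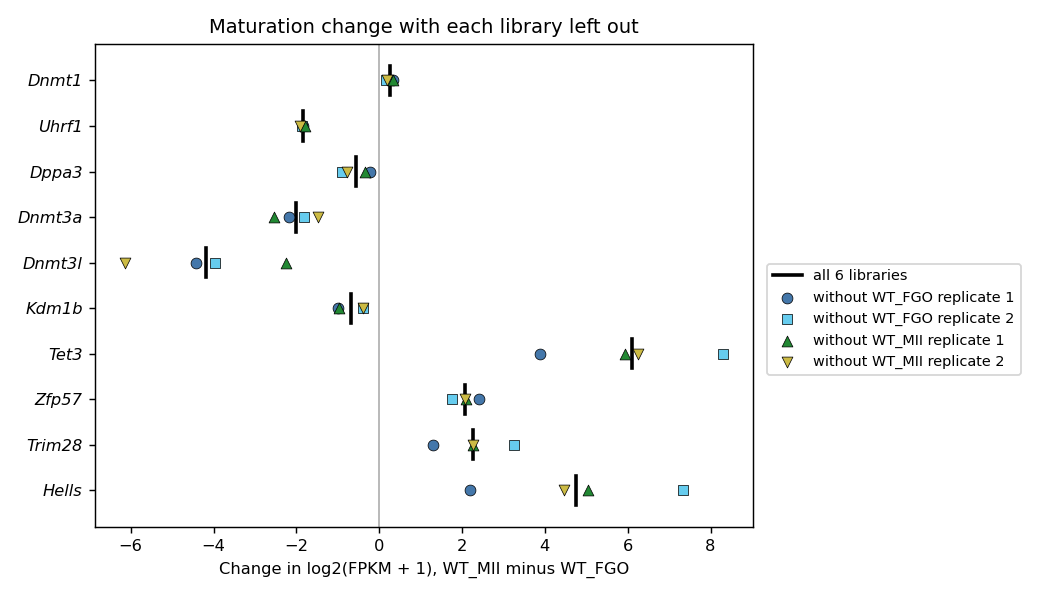
Change from WT_FGO to WT_MII in log2(FPKM + 1) (horizontal axis) for the 10 genes, with all 6 libraries (vertical bars) and with each of the 4 libraries of the 2 groups left out (symbols). Uhrf1 and Dnmt1 hardly moved, while Tet3 ranged from 3.88 to 8.31, Hells from 2.19 to 7.33 and Dnmt3l from -6.13 to -2.25.

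Over the maturation comparison 1 of the 10 genes was called higher, Zfp57, and 1 lower, Uhrf1, where 3.67% and 3.09% of the 15127 tested genes were called, 6.76% in either direction. All 10 genes passed the filter on low values. The WT_MII libraries lay wholly above the WT_FGO libraries for 5 genes (15.3% of all tested genes), wholly below for 4 (25.8%) and overlapped for 1 (58.9%). At an unadjusted p under 0.05 there were 7 of the 10 genes, against 22.8% of all tested genes. All of the 10 genes but Dnmt3l had at least 60 recovered reads over the 6 libraries, as had only 2706 of the 15127 tested genes. The shares of all tested genes in this and the other comparisons are therefore not matched for reads. The median difference was -0.15 in log2(FPKM + 1) beside -0.44 over all tested genes. Centring the libraries on their median log2 ratio shifted the median of all genes by 0.50, raised the share of higher among all called genes from 54.3% to 71.1%, and called Tet3, Zfp57 and Trim28 higher and Uhrf1 lower. With limma-voom on recovered reads 7 of the 10 were called, Tet3, Zfp57, Trim28 and Hells higher and Uhrf1, Dnmt3a and Dnmt3l lower. Because mRNA was not analysed here, a change in mRNA amount and a change in its translation cannot be told apart, nor can fewer oocytes in a library from fewer footprints per oocyte.

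**Figure D4:**
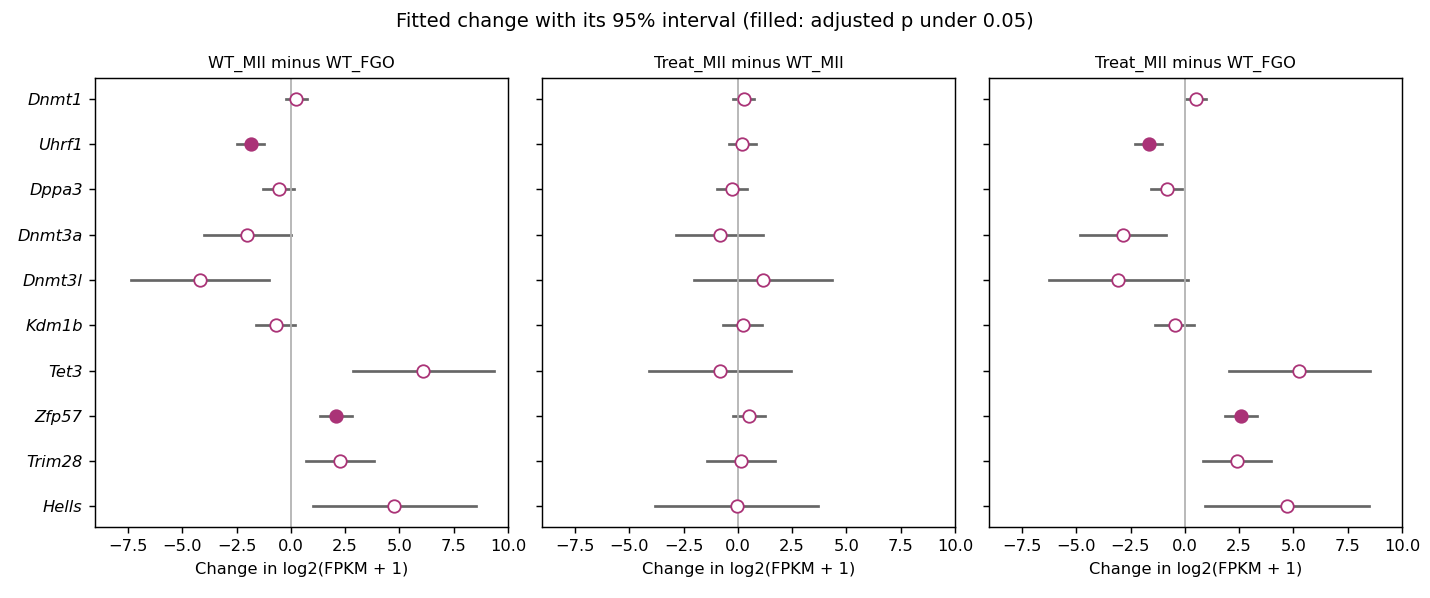
Fitted differences in log2(FPKM + 1) with 95% intervals (horizontal axes) for the 10 genes in WT_MII minus WT_FGO, Treat_MII minus WT_MII and Treat_MII minus WT_FGO. Filled points had a limma adjusted p under 0.05. Uhrf1 and Zfp57 were filled in both comparisons with WT_FGO, and no gene was filled in the comparison of treated with control MII oocytes.

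None of the 10 genes was called between treated and control MII oocytes, in a comparison in which limma called 0% of all tested genes (0 of 15127). At an unadjusted p under 0.05 there were 0 of the 10 genes and 5.83% of all tested genes. Both Treat_MII libraries were above both WT_MII libraries for Dnmt1, Uhrf1, Zfp57 and Trim28 (16.2% of all tested genes), both were below for Tet3 (15.6%), and the other 5 genes overlapped (68.2%). The median difference was 0.17 in log2(FPKM + 1), beside 0 over all tested genes. Of the 10 oocyte markers, 8 had both Treat_MII libraries above both WT_MII libraries and 2 overlapped. The median difference of these markers was 0.98, after -2.65 in maturation, and none was called in treatment. Whether the 2 MII groups matched in stage was not tested.

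Tet3 and Zfp57 were both separated between WT_MII and Treat_MII, in opposite directions. The mean level of Tet3 in Treat_MII was 0.563 of that in WT_MII, 179 ± 12.3 against 318 ± 47.4 FPKM (SD, n = 2). The difference was -0.82 ± 1.33 (SE) in log2(FPKM + 1), with a 95% interval of -4.07 to 2.43 (limma, adjusted p = 1). That SE pools the spread within all 3 groups, including WT_FGO with 0 and 20.6 FPKM, and is not the spread of the MII libraries alone. Fitted with the 2 MII groups only, the SE was 0.17 and the adjusted p of limma 0.348. limma-voom on the recovered reads gave -0.79 ± 0.19 and called Tet3 lower (adjusted p = 0.00471). It was the 1 call among the 10 genes and the 1 alternative of 13 that called it. Zfp57 had 1012 ± 53.2 against 709 ± 5.45 FPKM (SD, n = 2), 1.43 times the control mean, with a difference of 0.51 ± 0.30 (SE) and an interval of -0.21 to 1.23 in log2(FPKM + 1) (limma, adjusted p = 0.931). Uhrf1 differed by 0.20 ± 0.25 (SE), with an interval of -0.42 to 0.82 in log2(FPKM + 1) (limma, adjusted p = 0.984). Of the 3 genes with a G-quadruplex motif, Dnmt1 and Trim28 had treatment differences of 0.26 and 0.14 and Dnmt3a of -0.84 in log2(FPKM + 1), and none passed the test.

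Treated MII oocytes were also set against GV oocytes. This comparison shares its WT_FGO libraries with the maturation comparison, so the values stand side by side and are no second support. Zfp57 was higher by 2.59 ± 0.30 (SE) in log2(FPKM + 1) (limma, adjusted p = 0.00971), beside 2.08 in control oocytes, where 2.86% of all tested genes were called higher in treated oocytes against GV. Uhrf1 fell by 1.65 ± 0.25 (SE) on that scale (limma, adjusted p = 0.0260), beside -1.85 in control oocytes, and 1% of all tested genes were called lower. In all, 2 of the 10 genes were called beside 3.87% of all tested genes, and 8 had an unadjusted p under 0.05 beside 19.9%. Tet3 differed by 5.28 beside 6.10, Trim28 by 2.42 beside 2.27, Hells by 4.70 beside 4.76, Dnmt3a by -2.84 beside -2.001 and Dnmt3l by -3.05 beside -4.19, and none of these passed. Both Treat_MII libraries lay beyond both WT_FGO libraries for all 10 genes, 5 above and 5 below, where 16.6% and 28.9% of all tested genes did so. Centring shifted the median of all genes by 0.57 and raised the share of higher among all called genes from 74.0% to 92.3%, and Uhrf1 was then no longer called, while Zfp57, Dnmt1 and Trim28 were called higher (limma, adjusted p = 0.00454, 0.0473 and 0.0496). Without Treat_MII replicate 1 or 2 none of the 10 genes was called.

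Another 63 genes of the same pathways were listed by role, and 57 of them passed the filter on low values. In maturation 4 were called higher and 0 lower, beside 3.67% and 3.09% of all tested genes, with a median difference of -0.29 in log2(FPKM + 1) beside -0.44 over all tested genes. Atrx, the chromatin remodeller of heterochromatin, had 5.498 and 9.67 FPKM in WT_FGO, against 88.0 and 70.7 in WT_MII and 85.7 and 63.5 in Treat_MII, and rose by 3.26 ± 0.53 (SE) in log2(FPKM + 1) (limma, adjusted p = 0.0233). Ezh2 and Eed, the catalytic subunit and the H3K27me3-binding subunit of Polycomb repressive complex PRC2, rose by 1.91 ± 0.35 and 1.40 ± 0.28 (limma, adjusted p = 0.0321 and 0.0412). Ezh2 had 78.2 and 52.6 FPKM in WT_FGO against 268 and 222 in WT_MII, and Eed had 120.2 and 118 FPKM in WT_FGO against 295 and 341 in WT_MII. Both genes were above their WT_MII levels in Treat_MII, with 375 and 367 FPKM for Ezh2 and 374 and 358 FPKM for Eed, and neither passed the treatment test. Mtr, methionine synthase, rose by 2.74 ± 0.56 (limma, adjusted p = 0.0448) from 8.46 and 12.4 FPKM to 51.6 and 106 FPKM. In WT_FGO, Atrx rested on only 4 and 8 reads, Ezh2 on 17 and 13 and Mtr on 3 and 5. Mtr was called in 5 of 13 alternatives and missed the threshold with a pseudocount of 0.1, without a filter on low values and in 3 of the 4 fits with a library left out (limma, adjusted p up to 0.193 over the alternatives). Atrx and Ezh2 missed it without WT_MII replicate 1 (limma, adjusted p = 0.0877 and 0.108) or replicate 2 (limma, adjusted p = 0.0718 and 0.0810).

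By role, 0 of the 10 methyltransferases and UHRF1 partners, 0 of the 8 tested genes of cytosine oxidation and base excision repair and 0 of the 4 tested methyl-CpG readers were called in maturation. The methyl-CpG readers had the lowest median difference of the 6 lists, -2.56 in log2(FPKM + 1), with all 4 tested genes below 0, although their summed level was at most 37 reads in a WT_FGO library. Among 12 tested genes of imprint protection and heterochromatin 1 was called higher, Atrx, among 14 histone modifiers 2, Ezh2 and Eed, and among 9 genes of methyl donor supply 1, Mtr. None of the 57 genes was called in treated against control MII oocytes, with 2 at an unadjusted p under 0.05 in limma, beside 0% and 5.83% of all tested genes, and the median difference was 0.17 in log2(FPKM + 1). In treated MII against GV oocytes Ezh2, Atrx and Eed were called higher, by 2.51, 3.17 and 1.61 (limma, adjusted p = 0.0181, 0.0340 and 0.0377), and none lower, beside 2.86% and 1% of all tested genes. None of these 3 genes was called without Treat_MII replicate 1 or 2.

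**Figure D5:**
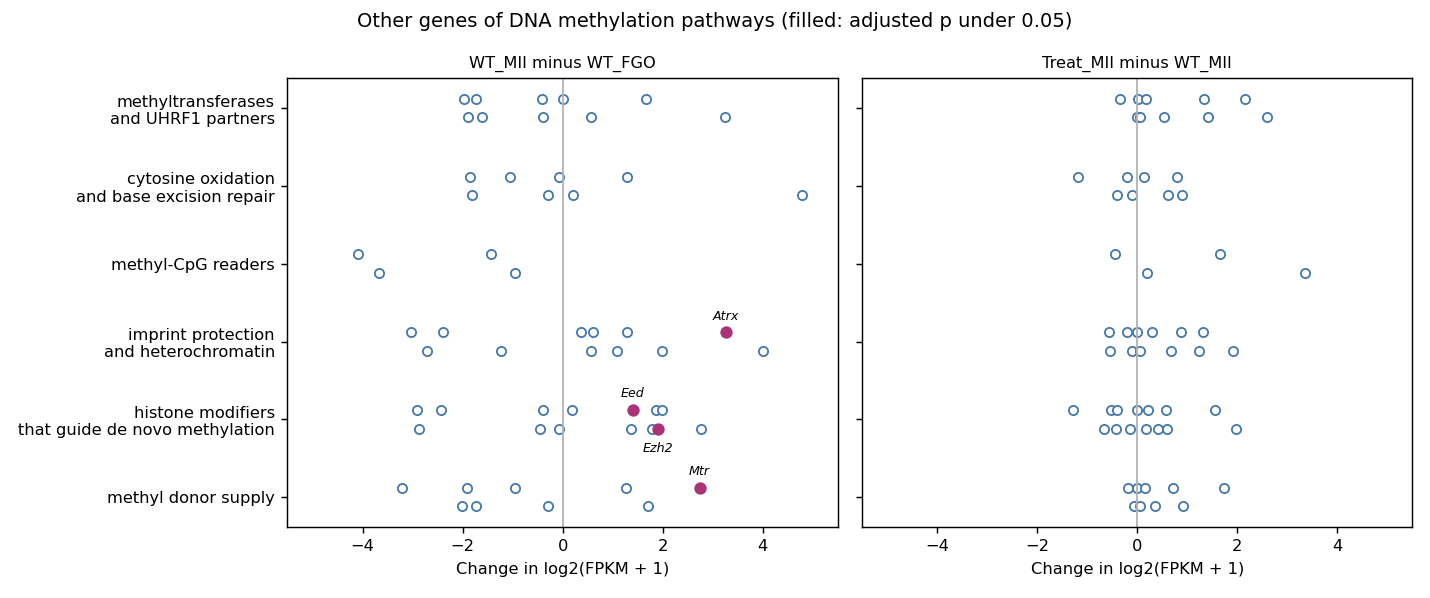
Differences in log2(FPKM + 1) (horizontal axes) of the 57 tested pathway genes, grouped by role, in WT_MII minus WT_FGO and Treat_MII minus WT_MII. Each point is a gene and filled points had a limma adjusted p under 0.05. Atrx, Eed, Ezh2 and Mtr were filled on the maturation side and no gene on the treatment side.

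Of the listed pathway genes the highest by mean level was Mat2b, the regulatory subunit of methionine adenosyltransferase, with 1603 and 1572 FPKM in WT_FGO, against 1351 and 1246 in WT_MII and 1313 and 1392 in Treat_MII. Its maturation difference of -0.29 ± 0.18 (SE) in log2(FPKM + 1) did not pass the test (limma, adjusted p = 0.444). Pcna, the replication clamp to which DNMT1 binds, had 67.7 and 131 FPKM in WT_FGO (5 and 11 reads) against 271 and 337 in WT_MII (35 and 61 reads). Of its stretches of 28 bases 77.9% were found elsewhere, and Pcna missed the threshold (limma, adjusted p = 0.0795). Cbx1, a heterochromatin protein, lay the other way, with 197 and 173 FPKM in WT_FGO (11 and 11 reads) against 61.3 and 7.30 in WT_MII (6 and 1 reads). It did not pass (limma, adjusted p = 0.119), and 10.5% of its stretches of 28 bases were found elsewhere. Usp7, a deubiquitinase that stabilizes DNMT1 and UHRF1, Rif1 and Cxxc1, a CpG-binding protein, completed the 8 highest, with maturation differences of 0.56, -1.23 and 1.87 in log2(FPKM + 1), and none passed. Tdg, the glycosylase that excises oxidized methylcytosine, Cbx3 and Ahcy were listed at 0 in all 6 libraries. At least 94.7% of the stretches of 28 bases in each of these 3 coding sequences also occur elsewhere in the genome.

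Among 2705 genes with at least 60 recovered reads, those whose log2(FPKM + 1) over the 6 libraries was most like that of Dppa3 were Pdhx (Pearson r = 0.987), Myh3 and Slc6a6 (both r = 0.980). Slc6a6 had 444 and 295 FPKM in WT_FGO, against 176 and 235 in WT_MII and 155 and 177 in Treat_MII. Those most like Tet3 were Sclt1 and Ppip5k2 (both r = 0.998) and Unc50 (r = 0.997). Sclt1 had 0 and 8.88 FPKM in WT_FGO, against 63.5 and 47.4 in WT_MII and 43.1 and 44.9 in Treat_MII. These correlations describe 6 libraries that share their depth and grouping, and were picked as the highest of many.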

How the data were processed

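The deposited values are FPKM per gene and library, made by the authors from Ribo-lite reads. Per the submitters' processing notes, cutadapt 1.14, Bowtie2 2.2.2 and STAR 2.5.3a were used with mm10. The counting program, annotation release and handling of molecular identifiers are not given in the sources used here, and no spike-in scaling is stated. Of 22442 entries, 26 with a repeated name were left out.

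Multiplied by GENCODE release 21 coding lengths, FPKM gave whole reads (tolerance 0.02 reads) for 96.4% of the genes, including all 10 described, but not Eed. A read in 1 kb was worth 3.02 to 10.6 FPKM. Floors of 3 reads were a chosen setting, below the upper end of the two-sided 95% interval of counting error for 0 reads. They cover counting error only.

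The 15127 genes whose mean reached 1 FPKM were tested on log2(FPKM + 1) with limma 3.58.1 in R 4.3.3 (lmFit, eBayes with trend, all 6 libraries, no covariate), two-sided, Benjamini-Hochberg over all tested genes, called under 0.05. Fold changes on this scale understate low genes. The procedure was tested on simulated data. Replicates differed beyond sampling noise. A legend of the study calls them biological replicates, while the labels do not say whether they came from separate collections of oocytes, and p-values measure only the spread between these libraries. Replicate numbers were not taken as pairs, since deviations of same-numbered libraries correlated at 0.0342, 0.0176 and 0.0189 over 2706 genes.

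Named are the 10 genes, pathway genes called in a comparison, the 8 pathway genes of highest mean FPKM, the 3 genes most like the highest gene and most like the gene of largest maturation change, and markers. Genes named outside this rule, Tdg, Cbx3 and Ahcy, were chosen after their values were seen. Genes and lists were chosen with earlier results of these data known. Alternatives were a pseudocount of 0.1, no filter or at least 5 FPKM, median centring, quantile normalization, a replicate block, no trend, limma-voom on recovered reads, only the compared groups, and leaving out each library.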

Additional observations from a re-analysis of the deposited data

How the results depend on the processing

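Called among the 10 genes in maturation (2 as reported) were 1 without a filter on low values, 4 after median centring, 0 without trend, 7 with limma-voom, 0 with only the compared groups and 1 to 5 with a library left out. Among the other pathway genes (4) there were 1 without a filter, 7 with at least 5 FPKM, 7 after centring, 0 without trend, 17 with limma-voom, 0 with only the compared groups and 1 to 7 with a library left out. The replicate block gave 2 such pathway genes, and it called 3 of the 10 genes, adding Tet3 (limma, adjusted p = 0.0424). The labels give replicate numbers only, and whether same-numbered libraries were collected as pairs is not known. The median maturation difference of the 10 genes (-0.15) was 0.35 after centring and -0.109 to 0.0649 with a library left out.

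In the treatment comparison limma-voom called 1 of the 10 genes, and leaving out a library gave 0. Among the other pathway genes leaving out a library gave 0 to 1, and the median of the 10 genes was -0.0809 to 0.19. For treated against GV oocytes, the 10 genes (2 called) gave 3 after centring, 3 after quantile normalization, 1 with the replicate block, 0 without trend, 9 with limma-voom, 0 with only the compared groups and 0 to 5 with a library left out. The other pathway genes (3) gave 6 after centring, 6 after quantile normalization, 1 with the block, 0 without trend, 14 with limma-voom, 0 with only the compared groups and 1 to 8 with a library left out. The median (0.02) was 0.60 after centring, -0.0617 after quantile normalization and 0.00604 to 0.13 with a library left out.

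Among single genes, signs changed only in differences that passed no test as reported. In the treatment comparison, in log2(FPKM + 1), Hells was 0.0178 after centring. With a library left out Hells ranged from -0.346 to 0.231, Dnmt3l from -0.802 to 3.08, Kdm1b from -0.0714 to 0.505 and Dnmt3a from -1.80 to 0.129. Kdm1b in treated against GV oocytes was 0.10 after centring. The cause of these moves was not tested, except that the fits with fewer libraries have fewer degrees of freedom. Over all genes limma-voom called 2378 in maturation, 165 in treatment and 2836 in treated against GV oocytes. No filter gave 536, 27 and 454, at least 5 FPKM 1319, 0 and 782, no trend 328, 0 and 59, and only the compared groups 0, 0 and 32. With 94309 reads in the shallowest library, Dnmt3l and Dnmt3a in all groups, and Tet3, Hells, Trim28 and Zfp57 in WT_FGO, rested on 32 reads or fewer per library. So did the pathway genes Atrx, Ezh2, Mtr, Pcna and Cbx1 in WT_FGO.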
